A study of Mus musculus with 16 samples.

Results

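Fibroblast growth factors (FGFs) bind receptor tyrosine kinases on the cell surface, and the signal passes through RAS, RAF and MEK to the kinase ERK. Active ERK switches on immediate early genes within minutes, and it also switches on genes whose products hold the pathway back, such as the phosphatase Dusp6 and the Sprouty proteins. In mouse embryonic stem cells this pathway is known for making the cells ready to leave the undifferentiated state, with Fgf4 as their own main ligand. The genes described here are this ligand, 4 immediate early genes (Egr1, Fos, Ier2 and Ier3) and 5 ERK targets (Dusp6, Spry2, Spry4, Etv4 and Etv5), 10 genes chosen by name. The name Fgf4 matched 0 probes, so Fgf4 was not analysed here. The other 9 genes had 13 probes, all 13 passed the filter on dim probes, and the 9 genes are part of 17650 genes tested.

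The cells were E14, a mouse embryonic stem cell line, stably carrying a short hairpin RNA in a lentiviral vector, directed against Sirt1 (sh-SIRT1) or a control hairpin (sh-Control). All cells grew in serum medium with a factor that the labels call leukocyte inhibitory factor, and they received 20 nM retinoic acid (RA) or ethanol vehicle for 2 days. There were 6 arrays of sh-SIRT1 cells under RA, 4 of sh-Control cells under RA, 3 of sh-SIRT1 cells in vehicle and 3 of sh-Control cells in vehicle. The design names 3 pairs of lines with duplicates without saying which arrays are duplicates, so p-values measure the spread between arrays, which may be partly technical. The sources used here do not say whether a line is 1 clone or a pool. RNA came from whole cultures, so fewer cells of a type and less RNA per cell cannot be told apart. Levels are log2 of the probe's signal over the 75th percentile of its array, and a level of 1 probe is not set against that of another. Differences are on the same log2 scale, with the limma standard error (SE) and a p adjusted over all 17650 genes, and "rose" or "fell" is used where that p was below 0.05.

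The number of arrays limits the precision, and between 60.05% and 68.0% of probes were well above background on each array. With the Sirt1 hairpin, Sirt1 fell by 2.18 ± 0.12 under RA (adjusted p = 2.41e-07) and by 1.81 ± 0.15 in vehicle (adjusted p = 3.91e-05). All 9 embryonic stem cell markers were well above background on every array of all 4 groups, while under RA 6 of them fell and 1 rose in sh-SIRT1 cells, and 4 fell and 1 rose in sh-Control cells. Of 12 primitive endoderm markers, 9 rose under RA in sh-SIRT1 cells and 8 in sh-Control cells, and of 7 trophoblast markers tested 6 rose in each line. A set of 3 arrays stood apart in Y-linked genes: the mean level of 3 such genes was -5.85, -6.16 and -6.10 on sh-Control RA arrays 2, 3 and 4, against -0.96 on sh-Control RA array 1, -1.10 to -0.69 in sh-SIRT1 cells under RA and -1.29 to -0.10 in vehicle. Differences of the 9 genes that rest on the sh-Control RA group are therefore also given with array 1 as the whole group, on the probe that stands for each gene, and for other named genes it is said which calls were lost that way. Array 1 also lies on 1 side of a split by array number described below, so such differences carry that split too. Counts over lists and over all genes use all 4 arrays. Arrays 3 and 4 of that group were the closest pair within a group: the SD across genes of their log2 difference was 0.211, and the next closest pair had 0.266. Every array was counted as a separate sample.

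Promoter sequences of 5 of these genes are shown because Fos, Ier3, Dusp6 and Spry2 were high on the same RA arrays, while Etv5 was low there on 1 of its 2 probes. Each is the 250 bases before the start site, written 5′ to 3′ from RefSeq (GRCm38.p6), with matches of the searched motifs in capitals. The motifs, searched on both strands, were TGACG (the first part of the cAMP response element), CGGAAG (a core that ETS factors such as Etv4 and Etv5 bind), AGGTCA (the core site of nuclear receptors, RA receptors among them) and the CArG box, at which serum response factor binds. Promoter windows of 6 of the 10 genes were used here, and no window of Egr1, Spry4, Ier2 or Etv4 is described. The windows are Fos (chr12:85473640-85473889, plus strand), Ier3 (chr17:35821463-35821712, plus strand), Dusp6 (chr10:99262981-99263230, plus strand), Spry2 (chr14:105896820-105897069, minus strand) and the first of 2 start sites of Etv5 (chr16:22439571-22439820, minus strand).
Fos: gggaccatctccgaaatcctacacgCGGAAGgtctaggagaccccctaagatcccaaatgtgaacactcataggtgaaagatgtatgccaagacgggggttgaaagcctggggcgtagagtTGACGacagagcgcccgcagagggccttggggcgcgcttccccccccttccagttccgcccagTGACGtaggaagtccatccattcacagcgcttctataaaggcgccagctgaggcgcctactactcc
Ier3: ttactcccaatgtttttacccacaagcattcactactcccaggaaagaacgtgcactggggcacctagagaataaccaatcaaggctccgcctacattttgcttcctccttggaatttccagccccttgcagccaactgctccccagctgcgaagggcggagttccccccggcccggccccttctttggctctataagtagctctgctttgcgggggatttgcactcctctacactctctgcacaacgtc
Dusp6: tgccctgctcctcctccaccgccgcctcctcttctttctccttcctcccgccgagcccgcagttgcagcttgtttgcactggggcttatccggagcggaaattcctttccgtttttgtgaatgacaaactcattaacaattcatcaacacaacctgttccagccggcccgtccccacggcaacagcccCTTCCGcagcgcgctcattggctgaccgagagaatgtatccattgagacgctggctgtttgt
Spry2: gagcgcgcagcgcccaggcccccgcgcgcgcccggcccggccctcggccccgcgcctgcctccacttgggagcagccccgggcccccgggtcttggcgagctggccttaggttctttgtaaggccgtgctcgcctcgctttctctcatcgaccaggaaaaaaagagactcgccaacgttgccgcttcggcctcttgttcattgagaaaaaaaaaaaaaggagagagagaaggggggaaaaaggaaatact
Etv5: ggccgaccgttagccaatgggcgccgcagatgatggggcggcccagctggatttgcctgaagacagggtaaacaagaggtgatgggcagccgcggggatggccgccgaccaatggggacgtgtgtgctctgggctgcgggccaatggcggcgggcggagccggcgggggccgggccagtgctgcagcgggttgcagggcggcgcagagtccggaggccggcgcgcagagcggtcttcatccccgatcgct
The Fos window holds TGACG 2 times, at -129 to -125 and at -66 to -62 from the start, and CGGAAG once, at -225 to -220. The Dusp6 window holds CGGAAG on its minus strand at -62 to -57, where the letters shown in capitals are the reverse complement. The Ier3, Spry2 and Etv5 windows hold none of the 4 motifs, and no AGGTCA or CArG box was found in any of the 5 windows. Bases further upstream were not searched, so sites there would be missed. Over 32851 promoter windows of the same length, 17.8% hold TGACG, 13.6% CGGAAG, 14% AGGTCA and 1.47% a CArG box. A match describes these letters only.

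RA was compared with vehicle within each line. Of the 9 genes, 4 fell and 0 rose in sh-SIRT1 cells (Egr1, Spry2, Etv5 and Ier2), and 4 fell and 0 rose in sh-Control cells (Egr1, Etv5, Spry4 and Spry2). Over all genes, 35.2% fell and 23.3% rose in sh-SIRT1 cells (58.5% in either direction), and 27.2% fell and 19.9% rose in sh-Control cells (47.1% in either direction). The counts of 4 among 9 stand against this background, and nothing particular to these genes is read from them. The median difference of the 9 genes was -0.57 in sh-SIRT1 and -0.51 in sh-Control cells, against -0.13 and -0.14 over all genes. The groups did not overlap, all RA arrays being lower, for 3 of the 9 genes in sh-SIRT1 cells (35% of all genes) and for 2 in sh-Control cells (28.4% of all genes). None of the 9 was higher on all RA arrays, against 22.9% and 19.5% of all genes.

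**Figure D1:**
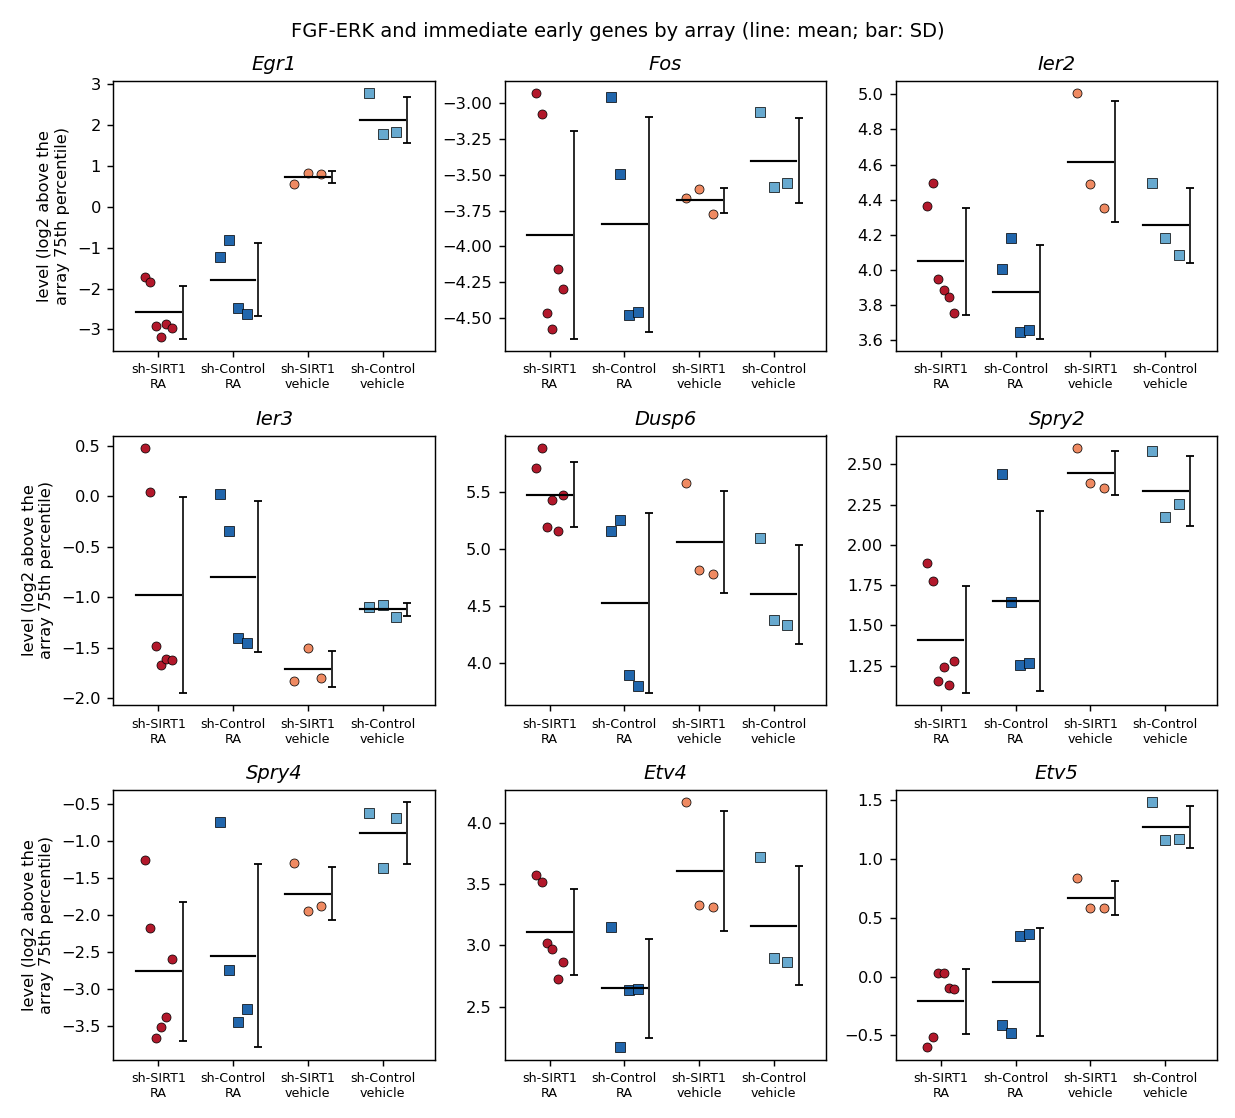
Level of each gene on every array (y axis, log2 above the array's 75th percentile) by group (x axis), with circles for sh-SIRT1 and squares for sh-Control arrays, the mean as a line and the SD as a bar. For Egr1 every RA array lies below every vehicle array, while for Ier3 and Dusp6 the RA arrays spread above and below the vehicle arrays.

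Egr1 encodes a zinc finger transcription factor that growth factor signals induce within minutes. Its level in sh-SIRT1 cells under RA ran from -3.20 to -1.71 with a median of -2.89, against 0.57, 0.83 and 0.79 in vehicle. In sh-Control cells it was -1.23, -0.81, -2.47 and -2.62 under RA, against 2.78, 1.79 and 1.82 in vehicle. In both lines all RA arrays lay below all vehicle arrays. Egr1 fell by 3.32 ± 0.43 in sh-SIRT1 cells (adjusted p = 1.73e-05, 9.95-fold) and by 3.91 ± 0.47 in sh-Control cells (adjusted p = 1.57e-05, 15.1-fold), and both calls held under all 27 alternatives in which they could be fitted. With array 1 as the whole sh-Control RA group it fell by 3.36 (adjusted p = 0.00139). The difference of the RA effects, sh-SIRT1 minus sh-Control, was 0.60 ± 0.63 (adjusted p = 0.649), with a 95% interval from -0.76 to 1.96.

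Etv5, an ETS transcription factor of the same subfamily as Etv4, was the other gene that fell in both lines under every alternative tried. In sh-SIRT1 cells its level was between -0.60 and 0.030 under RA with a median of -0.10, against 0.83, 0.58 and 0.58 in vehicle. In sh-Control cells it was -0.41, -0.47, 0.34 and 0.36 under RA, against 1.48, 1.16 and 1.17 in vehicle. The RA and vehicle arrays did not overlap in either line. Etv5 fell by 0.88 ± 0.21 in sh-SIRT1 cells (adjusted p = 0.00219) and by 1.32 ± 0.22 in sh-Control cells (adjusted p = 0.000301), or by 1.68 (adjusted p = 0.000701) with array 1 as the whole sh-Control RA group. A second probe of Etv5 gave -1.14 ± 0.11 and -1.26 ± 0.12 for the same comparisons, and on it the RA arrays spread less, from -1.17 to -0.96 in sh-SIRT1 and from -1.17 to -0.72 in sh-Control cells. Etv4 did not pass in either line, with differences of -0.50 ± 0.27 in sh-SIRT1 (adjusted p = 0.137) and -0.51 ± 0.30 in sh-Control cells (adjusted p = 0.169), where array 1 alone gave -0.013 (adjusted p = 0.985).

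Spry2 and Spry4 encode Sprouty proteins, which dampen signalling from receptor tyrosine kinases to ERK. Spry2 in sh-SIRT1 cells was 1.89, 1.78, 1.16, 1.24, 1.13 and 1.28 on RA arrays 1 to 6, against 2.60, 2.38 and 2.35 in vehicle. All 6 RA arrays lay below the vehicle arrays, and Spry2 fell by 1.03 ± 0.24 (adjusted p = 0.00232), a call kept by all 27 alternatives. In sh-Control cells Spry2 was 2.44, 1.65, 1.26 and 1.26 under RA, against 2.58, 2.17 and 2.25 in vehicle, so that RA array 1 lay within the vehicle range. The difference of -0.68 ± 0.26 passed narrowly (adjusted p = 0.0464), 19 of 27 alternatives lost the call, and a further 1 turned the sign: with array 1 as the whole group the difference was 0.11 (adjusted p = 0.81). The second Spry2 probe gave -0.67 ± 0.18 in sh-SIRT1 (adjusted p = 0.00485) and -0.50 ± 0.19 in sh-Control cells (adjusted p = 0.0437).

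Spry4 followed the same arrays. In sh-SIRT1 cells it was -1.26, -2.17, -3.65, -3.51, -3.37 and -2.59 on RA arrays 1 to 6, against -1.30, -1.95 and -1.88 in vehicle. In sh-Control cells it was -0.74, -2.74, -3.44 and -3.26 under RA, against -0.62, -1.37 and -0.69 in vehicle. RA array 1 of each line thus lay within or just above its vehicle range, and the others were lower than every vehicle array. The difference was -1.04 ± 0.58 in sh-SIRT1 (adjusted p = 0.14) and -1.65 ± 0.63 in sh-Control cells (adjusted p = 0.044). The sh-Control call was lost under 14 of 27 alternatives, and with array 1 as the whole group the difference was 0.15 (adjusted p = 0.899). The dimmer second probe gave -1.09 ± 0.40 (adjusted p = 0.0302) in sh-SIRT1 and -1.68 ± 0.43 (adjusted p = 0.00607) in sh-Control cells, but it was well above background on only 2 of 6 and 1 of 4 RA arrays.

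Ier2 and Ier3 are immediate early genes, and Ier3 is known to act in cell survival. Ier2 ranged from 3.75 to 4.49 in sh-SIRT1 cells under RA with a median of 3.92, against 5.01, 4.49 and 4.35 in vehicle, and it fell by 0.57 ± 0.20 (adjusted p = 0.0222). In sh-Control cells it was 4.01, 4.18, 3.65 and 3.66 under RA and 4.49, 4.18 and 4.08 in vehicle (difference -0.38 ± 0.21, adjusted p = 0.153, and -0.25 with RA array 1 alone). The sh-SIRT1 call was lost under 5 of 27 alternatives, among them leaving out sh-SIRT1 vehicle array 1 (difference -0.37, adjusted p = 0.153). The 2 probes of Ier2 disagree: the other one gave 0.0043 ± 0.15 in sh-SIRT1 (adjusted p = 0.983) and -0.43 ± 0.16 in sh-Control cells (adjusted p = 0.0457). Both lie on chromosome 8 (build mm7), at 83243584 to 83243618 and, for the other one, at 83243758 to 83243816. Ier3 did not pass in either line, with differences of 0.74 ± 0.48 in sh-SIRT1 (adjusted p = 0.205) and 0.32 ± 0.52 in sh-Control cells (adjusted p = 0.628, and 1.14 with RA array 1 alone).

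Fos, a subunit of the AP-1 transcription factor, and Dusp6, a cytoplasmic phosphatase that inactivates ERK, did not pass either. For Fos, whose probe was spotted 10 times on each array, the difference was -0.24 ± 0.40 in sh-SIRT1 (95% interval -1.10 to 0.62) and -0.44 ± 0.43 in sh-Control cells (-1.38 to 0.49). For Dusp6 the difference was 0.42 ± 0.33 in sh-SIRT1 (-0.30 to 1.13) and -0.076 ± 0.36 in sh-Control cells (-0.85 to 0.70). With RA array 1 alone the sh-Control difference was 0.45 for Fos and 0.56 for Dusp6 (adjusted p = 0.596 and 0.297). The intervals over all arrays are wide, and they do not show that either gene was stable.

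**Figure D2:**
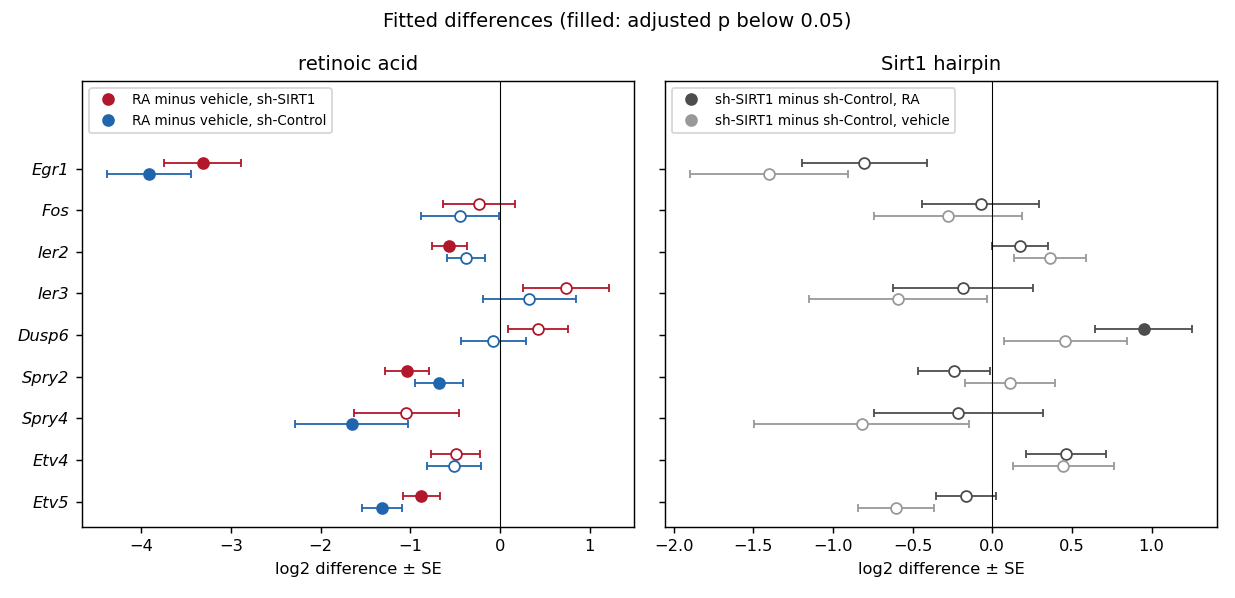
Fitted log2 differences with their SE (x axis) for each gene (y axis), RA minus vehicle on the left and sh-SIRT1 minus sh-Control on the right, with filled points where the adjusted p was below 0.05. Egr1 lies at -3.32 and -3.91 under RA, and Dusp6 under RA is the only filled point for the hairpin.

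The RA arrays of a group were not alike, and in both lines the arrays numbered 1 and 2 differed from the later ones. These were 2 of 6 RA arrays in sh-SIRT1 but 2 of 4 in sh-Control cells. Differences over all RA arrays, without the array number as a block, therefore carry this unequal share. Ier3 on sh-SIRT1 RA arrays 1 to 6 was 0.48, 0.045, -1.48, -1.67, -1.61 and -1.62, and on sh-Control RA arrays 1 to 4 it was 0.020, -0.34, -1.41 and -1.45. Arrays 1 and 2 of each line thus lay above the vehicle values of that line, which were -1.83, -1.50 and -1.80 in sh-SIRT1 and -1.09, -1.08 and -1.19 in sh-Control cells. In sh-Control cells arrays 3 and 4 lay below the vehicle values.

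Fos showed the same order of arrays. It was -2.93, -3.08, -4.47, -4.58, -4.16 and -4.30 on sh-SIRT1 RA arrays 1 to 6, against -3.66, -3.60 and -3.77 in vehicle. On sh-Control RA arrays 1 to 4 it was -2.96, -3.49, -4.48 and -4.46, against -3.06, -3.58 and -3.56 in vehicle. Arrays numbered 3 and above were all below vehicle in both lines. Egr1 on sh-SIRT1 RA arrays 1 to 6 was -1.71, -1.83, -2.92, -3.20, -2.87 and -2.98, again with arrays 1 and 2 highest. Ier2, Dusp6, Spry2 and Spry4 were likewise higher on arrays 1 and 2 than on any later array, in both lines.

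Etv5 ran the other way on the probe that stands for it. On sh-SIRT1 RA arrays 1 to 6 it was -0.60, -0.52, 0.028, 0.030, -0.097 and -0.11, so that arrays 1 and 2 were the lowest, and in sh-Control cells arrays 1 and 2 were the lowest too. Its second probe showed this in sh-Control cells (-1.01, -1.17, -0.72 and -0.74) but not in sh-SIRT1 cells, where arrays 1 and 2 were at -0.99 and -1.17 and the others between -1.13 and -0.96. Etv4 in sh-SIRT1 cells was 3.57 and 3.52 on RA arrays 1 and 2 and between 2.72 and 3.02 on arrays 3 to 6, but in sh-Control cells array 2 was the lowest, at 2.17, against 3.15 on array 1.

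Other genes moved with this split. The mean level of 6 fibroblast markers was 1.04 and 1.17 on sh-SIRT1 RA arrays 1 and 2 and between -0.11 and 0.042 on arrays 3 to 6. In sh-Control cells it was 0.93, 1.37, -0.74 and -0.80 on RA arrays 1 to 4. The mean of 7 trophoblast markers was 1.56 and 1.74 on sh-SIRT1 RA arrays 1 and 2 and 0.75 to 0.91 on the others, and 0.89, 1.37, 0.013 and -0.083 on sh-Control RA arrays 1 to 4. The mean of 12 primitive endoderm markers was 2.05 on sh-Control RA array 1, -0.11 on array 2 and -1.10 and -1.06 on arrays 3 and 4. The part of these cell types in the levels of the 9 genes was not tested. Slide did not follow the split: sh-SIRT1 RA arrays 2 and 3 were on the same slide, and Ier3 was 0.045 on array 2 and -1.48 on array 3.

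**Figure D3:**
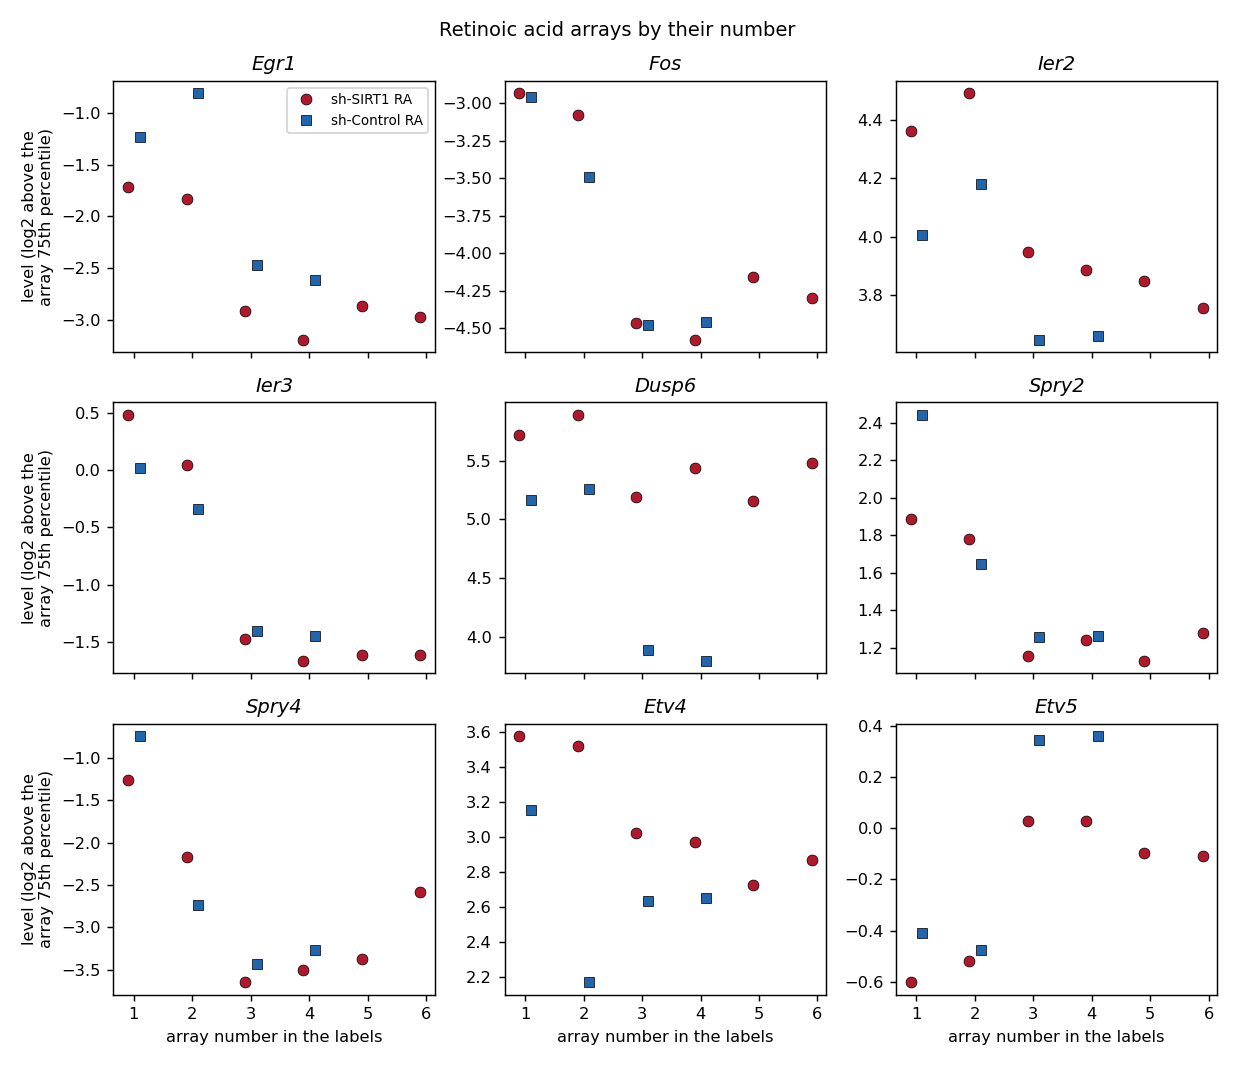
Level of each gene (y axis, log2 above the array's 75th percentile) on the RA arrays by their number in the labels (x axis), with red circles for sh-SIRT1 and blue squares for sh-Control. For Ier3, arrays 1 and 2 lie between -0.34 and 0.48 and all later arrays between -1.67 and -1.41, while for the plotted Etv5 probe arrays 1 and 2 are the lowest of each line.

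The hairpin comparison in vehicle sets the sh-SIRT1 line against the sh-Control line without RA. Of the 9 genes 0 passed in limma, against 8.7% of all genes (4.41% higher and 4.29% lower). The unadjusted limma p in this fit was below 0.05 for Egr1 and Etv5, and the share of all genes below it was not counted. This fit gives each gene 1 spread over all 4 groups. For Ier3 the SD was 0.97 and 0.75 under RA (sh-SIRT1 and sh-Control), against 0.18 and 0.061 in vehicle. Fitted on the vehicle arrays alone, 3 of the 9 passed (Egr1, Ier3 and Etv5), while 1471 of all genes passed, against 1536. All sh-SIRT1 arrays lay below all sh-Control arrays for 4 of the 9 (Egr1, Fos, Ier3 and Etv5), against 17.6% of all genes, and none of the 9 lay above throughout, against 18.3%. The difference for Egr1 was -1.40 ± 0.50 (adjusted p = 0.0981), and within slides 1 and 3 it was -1.94 and -1.0. Etv5 differed by -0.60 ± 0.24 (adjusted p = 0.133), and by -0.90 and -0.58 within these slides. Of 6 fibroblast markers, 3 were also lower in sh-SIRT1 cells in vehicle and 0 higher, and their part in these differences was not tested.

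Same-numbered arrays of both lines deviated together within a treatment, and array 1 was the highest of each vehicle group for Ier2, Dusp6, Spry2, Spry4, Etv4 and Etv5. Differently numbered arrays were not compared in this way. With the array number as a block, 5 of the 9 passed in vehicle: Etv5 (-0.60, adjusted p = 0.00452), Egr1 (-1.40, adjusted p = 0.0116), Ier3 (-0.59, adjusted p = 0.0349) and Spry4 (-0.82, adjusted p = 0.0382) were lower in sh-SIRT1 cells, and Ier2 (0.36, adjusted p = 0.0186) was higher. Such a block raised the count over all genes to 3409, against 1536 without it. The second probes of Ier2 and Spry4 gave -0.26 and -0.45 without the block, the sign for Ier2 being the opposite. The second probe of Etv5 gave a smaller difference without the block, -0.27 ± 0.12 (limma adjusted p = 0.204). For Spry2 the 2 probes gave 0.11 and, for the second, -0.13.

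Under RA, 1 of the 9 genes passed, against 20.5% of all genes (8.67% higher and 11.9% lower). For none of the 9 did the lines separate fully, against 6.52% of all genes with all sh-SIRT1 arrays higher and 9.08% with all lower. Dusp6 was 5.72, 5.89, 5.19, 5.43, 5.16 and 5.48 on sh-SIRT1 RA arrays 1 to 6, against 5.16, 5.26, 3.89 and 3.80 on sh-Control RA arrays 1 to 4. All sh-SIRT1 arrays lay far above sh-Control arrays 3 and 4, but sh-Control arrays 1 and 2 lay within the sh-SIRT1 range. That range spans the split by array number. On arrays 1 and 2 the sh-SIRT1 levels were 5.72 and 5.89, against 5.16 and 5.26 in sh-Control cells. On later arrays they were 5.16 to 5.48, against 3.89 and 3.80. Dusp6 rose by 0.95 ± 0.30 (adjusted p = 0.0399, 1.93-fold), and within slides 1, 2 and 4 the difference was 1.54, 0.63 and 0.43. The call was lost under 12 of 27 alternatives, including leaving out sh-Control RA array 3 (0.74, adjusted p = 0.141) or array 4 (0.71, adjusted p = 0.142). With array 1 as the whole sh-Control group the difference was 0.32 (adjusted p = 0.605).

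Egr1 was lower in sh-SIRT1 than in sh-Control cells under RA by a difference that did not pass (-0.80 ± 0.39, adjusted p = 0.169), with -0.72, -1.15 and -1.12 within slides 1, 2 and 4. With the array number as a block, 4 of the 9 passed under RA: Dusp6, Ier2 (0.30, adjusted p = 0.0155), Etv4 (0.62, adjusted p = 0.0327) and Etv5 (-0.22, adjusted p = 0.0491). That block also raised the count over all genes under RA to 5013, against 3626 without it. Without the block, the second probes gave -0.15 ± 0.10 for Etv5 and 0.17 ± 0.14 for Ier2. Those of Spry2 and Spry4 gave -0.29 and 0.14, against -0.24 and -0.21 on the probes that stand for these genes. Fos and Ier3 differed by -0.072 ± 0.37 and -0.18 ± 0.44 without the block, and both changed sign with it. The differences without the block carry the unequal share of RA arrays 1 and 2 in the lines. With array 1 as the whole sh-Control RA group, Spry2 was the gene that passed (-1.03, adjusted p = 0.0403), and the differences that did not were -1.36 for Egr1, -0.96 for Fos, -0.99 for Ier3, -2.01 for Spry4, 0.041 for Ier2, -0.038 for Etv4 and 0.20 for Etv5. The difference of the RA effects between the lines passed for 0 of the 9 genes in limma, against 3.73% of all genes (1.75% higher and 1.98% lower), and none had an unadjusted p below 0.05. Its intervals ran from -1.24 to 2.45 for Spry4 and from -0.21 to 1.09 for Etv5, so a difference of 1 log2 unit is within them. With sh-Control RA array 1 alone the differences of RA effects ran from -1.19 for Spry4 to 0.80 for Etv5, and 0 passed.

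The other genes of the pathway were taken from lists of ligands, receptors, cascade proteins, feedback genes and immediate early genes. Of 7 FGF ligands tested, 2 rose and 1 fell under RA in sh-SIRT1 cells, and 1 rose and 2 fell in sh-Control cells. Fgf17 fell by 1.73 ± 0.19 (adjusted p = 3.67e-06) in sh-SIRT1 and by 1.18 ± 0.20 (adjusted p = 0.000361) in sh-Control cells. Fgf3 rose in sh-SIRT1 cells (adjusted p = 0.00167), at least 2.57-fold in the main fit, its vehicle arrays being not well above background. That bound sets the mean under RA against the lowest signal counted as above background. The call was lost under 1 of 27 alternatives, and the lowest difference over the alternatives was 0.76. Fgf1 rose by 3.37 ± 0.46 and 3.58 ± 0.50 on 1 probe, and its other probe gave -0.30 and -0.98, so its direction is uncertain. Fgf15 fell by 0.68 ± 0.23 in sh-Control cells (adjusted p = 0.0245), and by 1.37 with RA array 1 alone. Fgf18 was lower with the Sirt1 hairpin, by differences of -0.86 ± 0.17 under RA (adjusted p = 0.00311) and -1.22 ± 0.22 in vehicle (adjusted p = 0.0036).

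Among 11 receptors and adaptors, 3 rose and 3 fell under RA in sh-SIRT1 cells, and 3 rose and 2 fell in sh-Control cells. Fgfr2 rose by 1.39 ± 0.41 and 1.68 ± 0.44. On sh-Control vehicle array 1 it was at -4.37, against -2.05 and -2.18 on arrays 2 and 3. Its sh-Control call was lost under 2 of 27 alternatives, with differences down to 0.93. Fgfrl1, a receptor without a kinase domain, rose by 1.11 ± 0.15 and 0.57 ± 0.16. In sh-SIRT1 cells Fgfr3 fell by 0.74 ± 0.11 (adjusted p = 5.82e-05), and the adaptor gene Gab1 fell by 0.62 ± 0.12 (adjusted p = 0.000636). Fgfr1, a receptor of the FGFs, was the gene of these pathway lists for which the lines differed in their RA effect. It was between 0.44 and 0.70 in sh-SIRT1 cells under RA, against -0.49, -0.81 and -0.75 in vehicle. In sh-Control cells it was -0.86, -0.42, -0.80 and -0.80 under RA, against -0.94, -0.97 and -1.02 in vehicle. Fgfr1 rose by 1.21 ± 0.10 in sh-SIRT1 cells (adjusted p = 4.48e-07). Its RA effects in the lines differed by 0.96 ± 0.15 (adjusted p = 0.00761), with 0.92, 0.95 and 0.97 on its 3 other probes.

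Fgfr1, Gab1, Dusp4, Jund and Ier2 lie on chromosome 8. Its 776 genes had a median sh-SIRT1 minus sh-Control difference of 0.26 under RA and 0.36 in vehicle, against -0.05 and -0.03 for genes on other chromosomes, and the part of this shift in their hairpin differences was not tested.

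The next list holds the cascade from RAS to ERK. Of 15 genes, 2 rose and 5 fell under RA in sh-SIRT1 cells (median -0.12), and 1 rose and 3 fell in sh-Control cells (median -0.07). Sos2, an exchange factor that loads RAS with GTP, rose by 1.45 ± 0.11 in sh-SIRT1 (adjusted p = 9.48e-08) and by 1.93 ± 0.11 in sh-Control cells (adjusted p = 2.7e-08), and it was also higher with the Sirt1 hairpin, by 0.56 ± 0.10 under RA and 1.04 ± 0.12 in vehicle. Nras fell by 0.49 ± 0.07 in sh-SIRT1 (adjusted p = 6.99e-05) and by 0.48 ± 0.08 in sh-Control cells (adjusted p = 0.000274).

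The other ERK feedback genes did not move as a block. Of 10 tested, 5 rose and 3 fell under RA in sh-SIRT1 cells (median 0.49), and 2 rose and 2 fell in sh-Control cells (median -0.01). The phosphatase gene Dusp9 rose by 2.10 ± 0.28 in sh-SIRT1 (adjusted p = 1.92e-05) and by 2.07 ± 0.30 in sh-Control cells (adjusted p = 8.48e-05), and Dusp14 rose by 2.44 ± 0.27 and 1.85 ± 0.29. Spred1, an inhibitor of RAS signalling, fell by 0.88 ± 0.17 and 1.06 ± 0.18, and Etv1, the remaining ETS factor of the subfamily of Etv4 and Etv5, fell by 1.38 ± 0.17 and 1.03 ± 0.19. With the Sirt1 hairpin under RA, 3 rose and 0 fell: Il17rd, a membrane inhibitor of FGF signalling, by 0.93 ± 0.23 (adjusted p = 0.0114), Dusp14 by 0.86 ± 0.25 (adjusted p = 0.0244) and Dusp4 by 1.18 ± 0.39 (adjusted p = 0.0461). The Dusp14 call was lost under 9 of 27 alternatives, among them array 1 as the whole sh-Control RA group (0.50, adjusted p = 0.503). The Dusp4 call was lost under 19 of 27, with 0.061 for array 1 alone (adjusted p = 0.916), and its other probe gave 0.31, as the other probes of Il17rd gave 0.69 and 0.26. Dusp4 was 1.33 and 1.16 on sh-Control RA arrays 1 and 2 and -0.84 and -0.83 on arrays 3 and 4, against 0.93 to 1.92 in sh-SIRT1 cells.

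Immediate early genes outside the 9 went both ways under RA. Of 25 tested, 8 rose and 7 fell in sh-SIRT1 cells (median -0.21), and 7 rose and 7 fell in sh-Control cells (median -0.25). Jun, a partner of Fos in AP-1, rose by 3.00 ± 0.28 (adjusted p = 1.02e-06) and 2.63 ± 0.31 (adjusted p = 1.29e-05), and Atf3, a stress-induced transcription factor, rose by 2.29 ± 0.26 and 1.95 ± 0.28. The nuclear receptor gene Nr4a1 fell by 0.84 ± 0.09 and 0.76 ± 0.10. With the Sirt1 hairpin, 4 rose and 0 fell under RA, and 2 rose and 1 fell in vehicle. Under RA they were Jun (1.37 ± 0.26, adjusted p = 0.0024), Jund (0.89 ± 0.11, adjusted p = 0.000155), Klf6 (0.66 ± 0.15, with 0.31 on its other probe) and Atf3 (0.84 ± 0.24, adjusted p = 0.023). The Atf3 call was lost under 6 of 27 alternatives, with 0.58 for sh-Control RA array 1 alone (adjusted p = 0.404), and array 1 alone also ended that of Klf6 (0.57, adjusted p = 0.182). In vehicle Ccn2, a matrix-associated signalling protein, rose by 1.85 ± 0.29 (adjusted p = 0.00184) and Jund by 0.73 ± 0.14 (adjusted p = 0.00537), while Egr4, a relative of Egr1, differed by -1.47 ± 0.40 (adjusted p = 0.0342), a call lost under 10 of 27 alternatives.

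Array 1 as the whole sh-Control RA group also ended calls of other list genes named above. These were Fgf18 (-0.58) and Sos2 (0.57) for the hairpin under RA and Fgfrl1 (0.41) for RA in sh-Control cells. Over all arrays these differences were -0.86, 0.56 and 0.57. A group of 1 array gives a less precise mean, so a call can be lost there without a smaller difference. The calls named above for Fgf1, Fgf15, Fgf17, Fgfr2, Nras, Dusp9, Spred1, Etv1, Nr4a1, Jun, Jund, Il17rd and the Fgfr1 difference of RA effects held, as did those of Sos2, Dusp14 and Atf3 for RA in sh-Control cells.

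**Figure D4:**
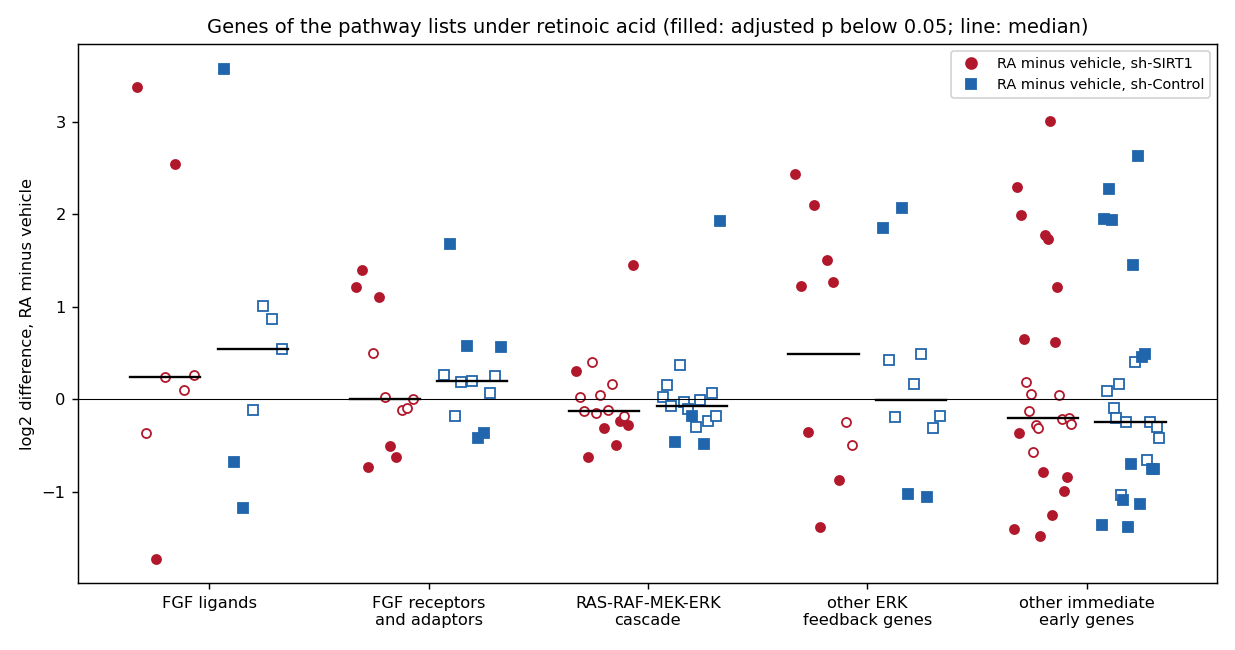
Log2 difference of each listed gene, RA minus vehicle (y axis), by list (x axis), with red circles for sh-SIRT1 and blue squares for sh-Control cells, filled where the adjusted p was below 0.05, and the list's median as a line. The medians lie between -0.25 and 0.54, with 5 rises and 3 falls among the feedback genes in sh-SIRT1 cells and 2 of each in sh-Control cells.

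The genes whose levels were most like those of Egr1 over the 16 arrays were Grhl2, 2610318N02Rik and Nectin3, with Pearson r of 0.984, 0.981 and 0.977. For Dusp6 they were Rassf1, Tmed2 and Tpm4, with r of 0.968, 0.958 and 0.955. The arrays share the RA treatment and the split by array number, so these values describe a common order of arrays.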

How the data were processed

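RNA of 16 samples was hybridised to 16 single-colour (Cy3) Agilent mouse arrays with 43379 spots that are not controls. Intensity values were made by the authors with Agilent Feature Extraction 9.5, per the submitters' processing notes (9.5.3.1 per the file headers, design build mm7), which had already subtracted background from the deposited processed signal. The deposited table of the series held the same intensity on all 45018 spots. From these, log2 of the processed signal minus the array's 75th percentile was computed, outlier spots were left out, spots of a probe were averaged, and probes were kept where some group had them well above background on each of its arrays (26375 of 41174). The probe with the highest mean stood for a gene. limma 3.58.1 (R 4.3.3) fitted 4 group means on all 16 arrays, with Benjamini-Hochberg adjustment over 17650 genes, two-sided at 0.05. On arrays simulated for the vehicle hairpin comparison it called 13, 31, 42 and 48 of 50 genes changed by 0.5, 1, 2 and 4 log2 units. The simulated noise was independent between arrays, unlike the correlated deviations of the measured arrays, so these counts need not hold for them.

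The fit has no pairing. Within a treatment, the deviations of same-numbered arrays of both lines from their group means correlated at 0.366 to 0.543. Across treatments within a line these correlations ran from -0.21 to 0.22, and the array number was a block in an alternative fit. Differently numbered arrays were not compared in this way, so pairing by number beyond the split by array number was not tested. The 28 alternatives changed the normalization, background correction, filter, probe choice, blocks and arrays. A random block for the array number was added after seeing the data. Named genes are all members with every probe, up to 4 genes per list and comparison with the lowest adjusted p among those that passed, and the 3 genes with the highest Pearson r to Egr1 and Dusp6; some listed genes are not reported here. The members and lists were chosen with earlier results of these data known.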

Additional observations from a re-analysis of the deposited data

Results flagged for a closer look

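The RA effect on Fgfr1 differed between the lines, by a log2 difference of 0.96 ± 0.15 (limma adjusted p = 0.00761), tested as the difference of the RA effects in sh-SIRT1 and sh-Control cells. The gene averaged 0.53 ± 0.09 (SD, n = 6) in sh-SIRT1 cells under RA and -0.68 ± 0.17 (n = 3) in vehicle, against -0.72 ± 0.20 (n = 4) under RA and -0.98 ± 0.04 (n = 3) in vehicle in sh-Control cells. The call was lost after normexp background correction (0.86, adjusted p = 0.0659) and with the array number as a replicate block within line (0.98, adjusted p = 0.289), and it held under the other 26 alternatives.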

How the results depend on the processing

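The falls of Egr1 and Etv5 under RA in both lines and of Spry2 in sh-SIRT1 cells held under all 27 alternatives. The other calls lay close to the threshold, and the causes of the changes below were not tested. Members called for the hairpin in vehicle (0) were 5 with the replicate block within treatment, 3 with only the arrays of the groups compared (Egr1, Ier3 and Etv5) and 2 with the array number as a random block. Over all 17650 genes, only the arrays compared gave 1471 for the hairpin in vehicle, against 1536 in the main fit. They gave 3036 under RA, against 3626, and 5793 for RA in sh-Control cells, against 8307. Under RA (1) they were 0 after normexp, without the filter on dim probes, with slide as a block and with only the arrays compared, 4 with the replicate block and 3 with the random block. For RA in sh-Control cells (4) they were 2 after normexp, without the filter, with the replicate block within line, with only the arrays compared and with array 1 as the whole sh-Control RA group. Leaving out 1 array gave 0 to 0 for the hairpin in vehicle, 0 to 1 under RA, 2 to 4 for RA in sh-Control, 3 to 5 for RA in sh-SIRT1 and 0 to 0 for the difference of RA effects.

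Signs turned only for differences that had not passed, and for Spry2 and Spry4 under RA in sh-Control cells. With array 1 as the whole sh-Control RA group, RA in sh-Control gave 0.45 (Fos), 0.56 (Dusp6), 0.11 (Spry2) and 0.15 (Spry4), the hairpin under RA gave -0.038 (Etv4) and 0.20 (Etv5), and the difference of RA effects gave -0.68 (Fos), -0.40 (Ier3), -0.14 (Dusp6), -1.19 (Spry4) and -0.48 (Etv4). With slide as a block the last was -0.079 (Fos), -0.053 (Ier3), -0.0015 (Spry4) and -0.067 (Etv4). Normexp turned Fos, to 0.0059 for RA in sh-Control and 0.14 for RA in sh-SIRT1, and the difference of RA effects for Etv4 (-0.0055). Quantile normalization gave 0.18 (Dusp6) for RA in sh-Control. The mean over probes gave 0.12 (Ier2, difference of RA effects) and -0.0084 (Spry2, hairpin in vehicle). The replicate block within treatment gave 0.083 (Fos) and 0.14 (Ier3) for the hairpin under RA, the random block 0.0058 (Fos), and the replicate block within line 0.19 (Fos, RA in sh-SIRT1) and 0.17 (Dusp6, RA in sh-Control). Leaving out 1 array, ranges that crossed 0 were -0.32 to 0.17 (Dusp6, RA in sh-Control), -0.28 to 0.22 (Fos), -0.47 to 0.090 (Ier3), -0.37 to 0.023 (Spry2) and -0.51 to 0.39 (Spry4) for the hairpin under RA, and -0.26 to 0.30 (Etv4), -0.0051 to 0.50 (Fos) and -0.32 to 0.0076 (Ier2) for the difference of RA effects.

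Over all genes, the count for the hairpin in vehicle (1536) was 334 after normexp, 944 with slide, 3409 with the replicate block, 4597 with the random block and 723 to 2164 without 1 array. Under RA (3626) it was 1193 after normexp, 5514 with probes tested singly, 2080 with array 1 and 6528 with the random block. RA in sh-Control (8307) gave 4680 after normexp. The difference of RA effects (658) gave 25 after normexp, 278 without the filter, 1201 with probes singly, 89 with slide, 1622 and 1 with the replicate block within treatment and within line, 319 with array 1, 3392 with the random block and 199 to 1837 without 1 array. Of 66 results on listed genes, 42 held under every alternative.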

Other observations

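Heat shock genes, which share stress-responsive regulation with several immediate early genes, were followed as a further list. Of 7 tested, 2 rose and 2 fell under RA in sh-SIRT1 cells, and 2 rose and 3 fell in sh-Control cells. Hspa1a, an inducible HSP70 chaperone, rose by 3.38 ± 0.33 (adjusted p = 1.33e-06) in sh-SIRT1 and by 3.15 ± 0.35 (adjusted p = 9.3e-06) in sh-Control cells. Hsph1, a co-chaperone of HSP70, fell by 0.63 ± 0.09 and 0.58 ± 0.10. Dnajb1 was higher with the Sirt1 hairpin, by 0.64 ± 0.07 under RA (adjusted p = 9.85e-05) and 0.66 ± 0.09 in vehicle (adjusted p = 0.000739), and it lies on chromosome 8, like the genes named above.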
